A study of Ovis aries with 30 samples.

Results

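Immediate early response genes were followed here through the liver RNA of 30 lambs. The set is a fixed list of 44 genes of the immediate early response, a class defined by induction without new protein synthesis. Whether each member meets that definition was not examined here. Each listed gene found as a row of the count table was kept, which gave 44 of 44, out of 31304 gene rows in all. The lambs (Ovis aries) were first-generation offspring of ewes that either had or had not been exposed, before conception and during pregnancy, to biosolids, a fertiliser made from sewage sludge that holds many environmental chemicals at once. There were 8 control females, 8 biosolids females, 7 control males and 7 biosolids males, 15 lambs per exposure group, and each library came from the whole liver of 1 lamb, named here by its tag number. Whole tissue was sequenced, so fewer cells of a type and less RNA per cell cannot be told apart in any value below. The labels do not state the age of the lambs, their litters or the day of sampling.

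Immediate early genes are switched on within minutes of a stimulus because their promoters are already occupied by factors such as SRF, ELK1 and CREB, which are activated by phosphorylation through MAP kinase and cAMP signalling. Most of the transcripts carry decay signals and disappear quickly, and several of the encoded proteins (dual specificity phosphatases, ZFP36, SOCS3) close the loop by shutting off the signal or destroying the messages. In liver the programme is best known from partial hepatectomy and the acute phase response.

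Total counts lay between 24.1 and 51.9 M in 29 of the libraries, in which ribosomal RNA rows took 0.299 to 7.69% of the counts. The library of biosolids male 8778 held 18.7 M counts, of which 87.5% were on ribosomal RNA rows. For each contrast that includes this lamb, the number of members at p under 0.05 is also given without it. Values of single members, markers and other lists include it unless stated. A second library stood apart in these genes. Control female 8263 was the highest of the 30 lambs for 14 of the 43 members tested (32.6%), against 11.5% of all tested genes, and 8778 was the lowest for 12 (27.9%), against 16.2% of all tested genes. In 8263 the summed level of 10 Kupffer cell and macrophage markers was 2380 CPM (counts per M counts of the library, after TMM scaling), against at most 1770 in any other lamb, the summed level of 8 T and NK cell markers was 107 CPM, against at most 56.5, and the summed hepatocyte markers, at 68200 CPM, ranked 29 of 30. Hepatocyte markers were high in every lamb, with a median of 51600 CPM for ALB (albumin). The macrophage marker CD68 was listed at 0 in 30 of 30 lambs, while MARCO (median 47.6 CPM) and TIMD4 (52.4 CPM) were measured in each.

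The members covered more than 3 orders of magnitude in level. Per kilobase of exon length, the 5 highest medians over lambs were those of JUND (64.9 CPM per kb), an AP-1 subunit that is known to be less inducible than its relatives, ERRFI1 (59.7 CPM per kb), an inhibitor of the EGF receptor, ZFP36L1 (58.6 CPM per kb), which targets messages with AU-rich elements for decay, DUSP6 (51.8 CPM per kb), the phosphatase of ERK, and BTG1 (41.3 CPM per kb), an antiproliferative factor. The interquartile ranges of adjacent genes in this order overlapped, so the order of neighbours is not fixed by these data. Further apart, the lower quartile of JUND (60.1 CPM per kb) lay above the upper quartiles of DUSP6 (59.3) and BTG1 (50.7). The lower quartile of ERRFI1 (50.9) lay just above the upper quartile of BTG1. Between neighbours in the order of all 44, the quartiles were separate at 3 places, below FOS, below ATF3 and below NR4A3. FOS, the subunit that pairs with JUN proteins in AP-1, ranked 33 of 44 at 3.29 CPM per kb, with a range from 0.855 to 17.5. The 5 lowest were NR4A2 (0.257 CPM per kb), FOSB (0.221), EGR3 (0.151), NR4A3 (0.145) and FOSL1 (0.0289). FOSL1 reached at most 17 counts in any library and had 0 in 2 of them. It was left out of every test by the filter on low counts, and the other 43 members passed among 17840 genes.

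Comparisons of level between members carry a limit. The exon length in the table ranged from 978 bases for ZFP36 to 13226 bases for ERRFI1, and how much untranslated sequence each gene model holds was not examined. The use of strand in counting is not stated in the labels. FOSL1, ATF3, IER2, NR4A2, SOCS3, GADD45A, PPP1R15A and CCN2 each overlap an annotated gene on the opposite strand in ARS-UI_Ramb_v3.0, so their counts are uncertain to that extent.

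**Figure D1:**
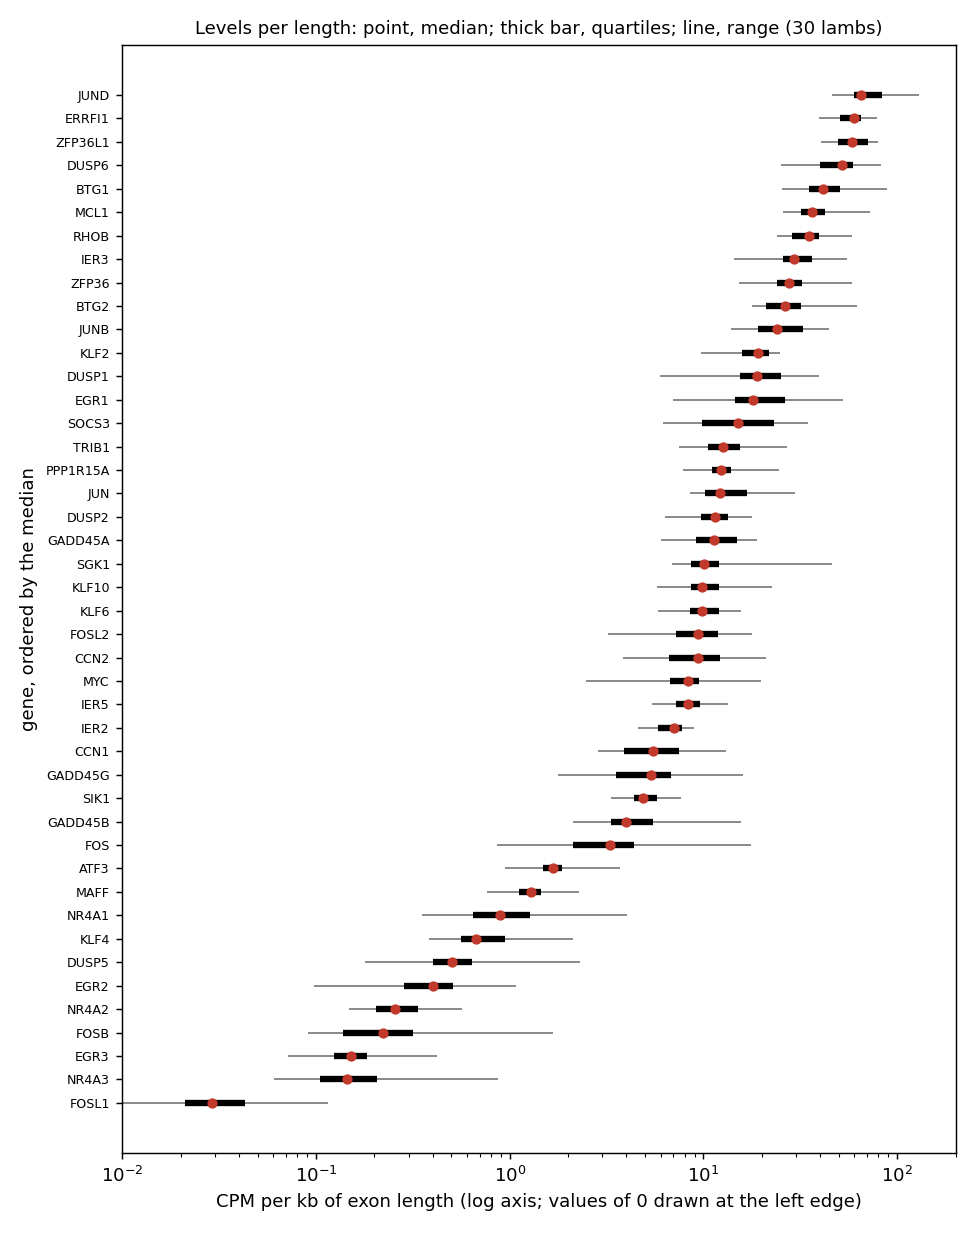
Level of each of the 44 immediate early genes in CPM per kb of exon length (log axis) over 30 lambs. Points are medians, thick bars quartiles and thin lines the full range. Medians run from 64.9 for JUND down to 0.0289 for FOSL1, and FOS, FOSB, NR4A1 and SGK1 have long upper tails.

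Variation between lambs of one group differed widely among the members. The spread is the SD of log2 CPM within a group, taken as the median over the 4 groups. It was largest for GADD45B (0.86), a stress sensor, FOS (0.85), FOSB (0.76), the orphan nuclear receptor NR4A1 (0.72) and EGR1 (0.72), a zinc finger factor. FOS and GADD45B lay at percentiles 90.5 and 90.7 of all tested genes on this scale. The narrowest were IER2 (0.21), ZFP36L1 (0.24), the anti-apoptotic BCL2 relative MCL1 (0.25), the small GTPase RHOB (0.28) and ERRFI1 (0.29). The median over the 43 tested members was 0.42, beside 0.40 over all tested genes, so wide spread belonged to some members and not to the list.

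The spread of FOS itself depended on the group. It was 0.49 in control females, 0.84 in biosolids females, 1.36 in control males and 0.86 in biosolids males. FOSB followed the same order at its upper end, with 1.61 in control males against 0.74 to 0.77 in the other 3 groups. These values are given as a description and no test of the spread was made.

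**Figure D2:**
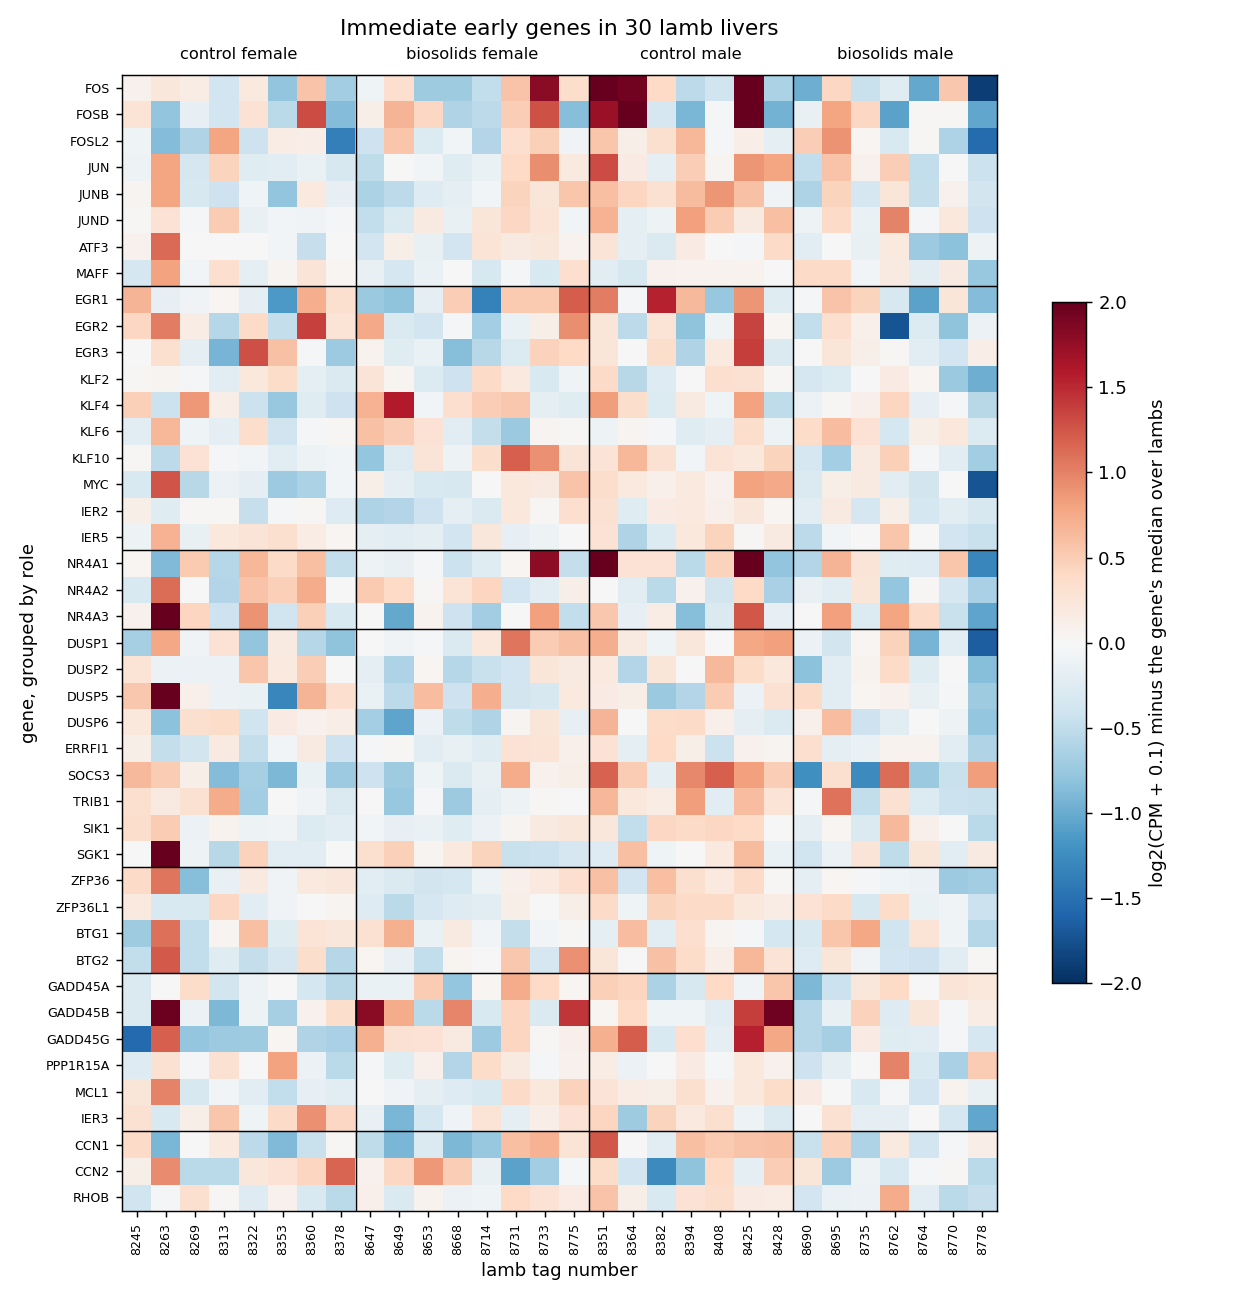
Each tested member (rows, grouped by role) in each lamb (columns, by group), as log2(CPM + 0.1) minus the gene's median over the 30 lambs. Lamb 8263 is high for many members and lamb 8778 low for many, but neither is so for all of them. FOS, FOSB and NR4A1 are high together in control males 8351 and 8425 and in biosolids female 8733.

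The AP-1 genes were described first by lamb. In control males FOS (chromosome 7, 84571490 to 84574889, ARS-UI_Ramb_v3.0) ran from 4.34 to 36.2 CPM with a median of 8.98. In biosolids males it ran from 1.77 CPM (5 counts, in lamb 8778) to 9.89 CPM with a median of 4.99. Control females lay between 3.89 and 10.2 CPM (median 7.39) and biosolids females between 4.10 and 23.9 CPM (median 7.48). All 4 groups overlapped. Control males 8425, 8351 and 8364 stood above every lamb of the study, the fourth highest was biosolids female 8733, and the other control males were within the range of the females.

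FOSB (chromosome 14, 52861368 to 52868302), a close relative of FOS, had the same 3 control males on top, with a range of 0.383 to 6.33 CPM in that group, 0.344 to 1.52 CPM in biosolids males, 0.411 to 2.20 CPM in control females and 0.417 to 2.17 CPM in biosolids females. JUNB (chromosome 5, 11038097 to 11039921), a JUN relative, ran from 41.7 to 80.9 CPM in control males (median 66.3), from 28.7 to 59.6 CPM in biosolids males (median 35), from 25.4 to 76.3 CPM in control females (median 40.3) and from 28.4 to 64.7 CPM in biosolids females (median 40.6). All 7 control males lay above the median JUNB of each other group, whereas only 3 of the 7 stood out in FOS. JUN had medians of 45.7 CPM in control males and 32.1 CPM in biosolids males, and the groups overlapped.

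**Figure D3:**
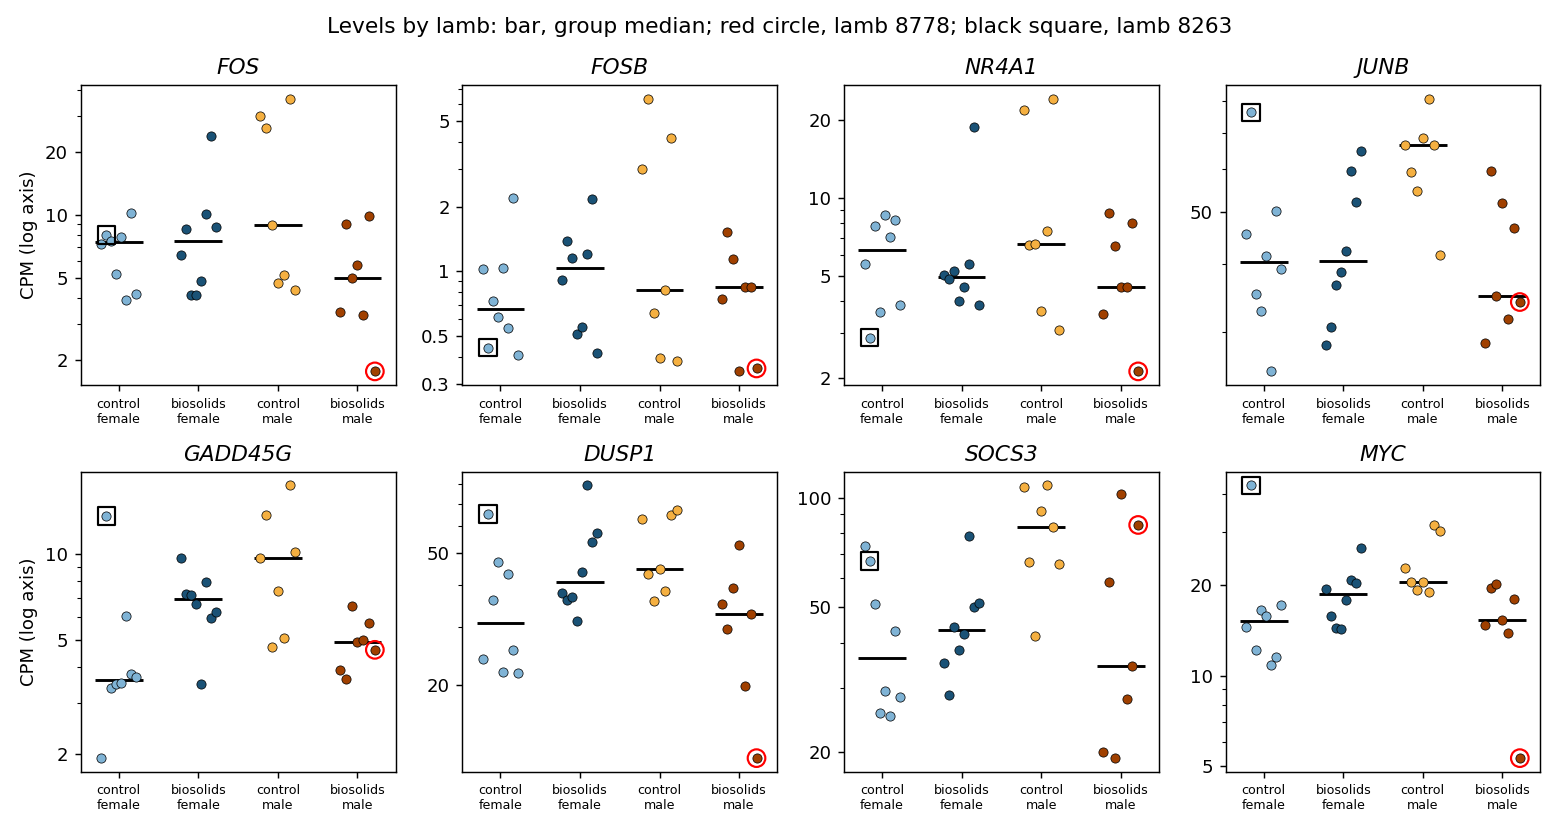
CPM (log axis) of 8 members in each lamb by group, with bars at group medians, a red circle around lamb 8778 and a black square around lamb 8263. FOS, FOSB and NR4A1 are high in 2 or 3 control males, whereas JUNB, GADD45G and SOCS3 are shifted in most control males, and every pair of groups overlaps.

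The first comparison asked whether exposure of the ewe went with different levels in male lambs. None of the 43 members passed an adjusted p of 0.05 (quasi-likelihood F-test of edgeR, Benjamini-Hochberg adjustment over all genes), where 0.0% of all tested genes did. DESeq2 and limma voom called none of the members either. At an unadjusted p under 0.05, 12 members were lower in biosolids males, beside 2.15% of all tested genes, and 0 higher, beside 3.29%. The log2 fold change was below 0 for 38 of the 43 members, beside 48.7% of all tested genes, and its median was -0.30, beside 0.009 over all genes. Without lamb 8778, 38 members lay below 0, the median was -0.26 and 8 were lower at p under 0.05. Leaving out each lamb in turn, the number below 0 ranged from 36 to 40 and the median from -0.37 to -0.24. The number lower at p under 0.05 was less stable, at 7 without 8351, 8425 or 8690 and 17 without 8762. By limma voom with sample weights 38 members lay below 0, with a median of -0.35, beside 0.003 over all genes.

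FOS and FOSB had the log2 fold changes farthest below 0. FOS had a log2 fold change of -1.54 ± 0.47 (SE; unadjusted p = 0.00293, adjusted p = 0.816, edgeR quasi-likelihood), and -1.44 without 8778. With each lamb left out it ranged from -1.73 to -1.22, the weakest without control male 8425. DESeq2 gave FOS an adjusted p of 0.352. FOSB stood at -1.36 ± 0.54 and moved to -0.84 without control male 8364 and to -0.58 by limma voom with sample weights. JUNB was at -0.60 ± 0.21 (from -0.72 to -0.53 with each lamb left out) and JUN at -0.55 ± 0.24 (from -0.67 to -0.39). Of the 8 AP-1 members tested, 7 lay below 0, with a median of -0.42, and MAFF, a small MAF protein, was at 0.12.

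Among the other transcription factors 9 of 10 lay below 0, with a median of -0.34. MYC, the growth regulator, ran from 19.0 to 31.5 CPM in control males. In biosolids males MYC ran from 5.32 CPM (15 counts, in lamb 8778) to 20.2 CPM. Its log2 fold change was -0.59 ± 0.25, and -0.47 without 8778. EGR1 was at -0.64 ± 0.37, and at -0.41 without control male 8382, with overlapping groups (17.4 to 85.2 CPM in control males, 13.9 to 43.6 CPM in biosolids males). ATF3, a stress-induced repressor of the ATF family, was at -0.29 ± 0.19, and at -0.19 without biosolids male 8770. KLF6, a zinc finger factor, was the member farthest above 0, at 0.20.

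The orphan nuclear receptors were divided. NR4A1 was at -0.91 ± 0.43 and at -0.55 without control male 8425, a move of over 1.5 times, while NR4A2 was at -0.06 and NR4A3 at 0.02. In control males NR4A1 ran from 3.07 to 24.2 CPM, with 8425 and 8351 far above the other 5, and in biosolids males from 2.13 to 8.71 CPM.

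Genes of signal feedback lay below 0 in 9 of 9 cases, with a median of -0.23. DUSP1 (chromosome 16, 4709600 to 4712692), a phosphatase of p38 and JNK, ran from 35.7 to 67.1 CPM in control males and from 12.1 to 52.5 CPM in biosolids males, where 8778 was lowest. The log2 fold change was -0.68 ± 0.27, and -0.55 without 8778. SOCS3, the inhibitor of IL-6 and JAK-STAT signalling, ran from 41.6 to 108 CPM in control males and from 19.3 to 102 CPM in biosolids males. Its log2 fold change was -0.71 ± 0.33, and -0.88 without 8778, since 8778 was one of the 2 highest biosolids males.

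Of the 6 genes of stress, survival and growth arrest, 5 lay below 0. GADD45G (chromosome 2, 24395191 to 24396757), a growth arrest gene of the same family as GADD45B, ran from 4.71 to 17.3 CPM in control males (median 9.65) and from 3.64 to 6.56 CPM in biosolids males (median 4.91). The groups overlapped in the lowest 2 control males. The log2 fold change was -0.98 ± 0.32 (unadjusted p = 0.00466, adjusted p = 0.816, edgeR quasi-likelihood), -0.96 without 8778, and from -1.09 to -0.77 with each lamb left out. ZFP36 (chromosome 14, 48458889 to 48460716), which destroys AU-rich messages, was at -0.50 ± 0.20, with control males at 20.7 to 41.2 CPM and biosolids males at 16.3 to 27.7 CPM. CCN1, a secreted matricellular protein, was at -0.60 ± 0.27, and KLF10, a TGF-beta inducible factor, at -0.44 ± 0.21.

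**Figure D4:**
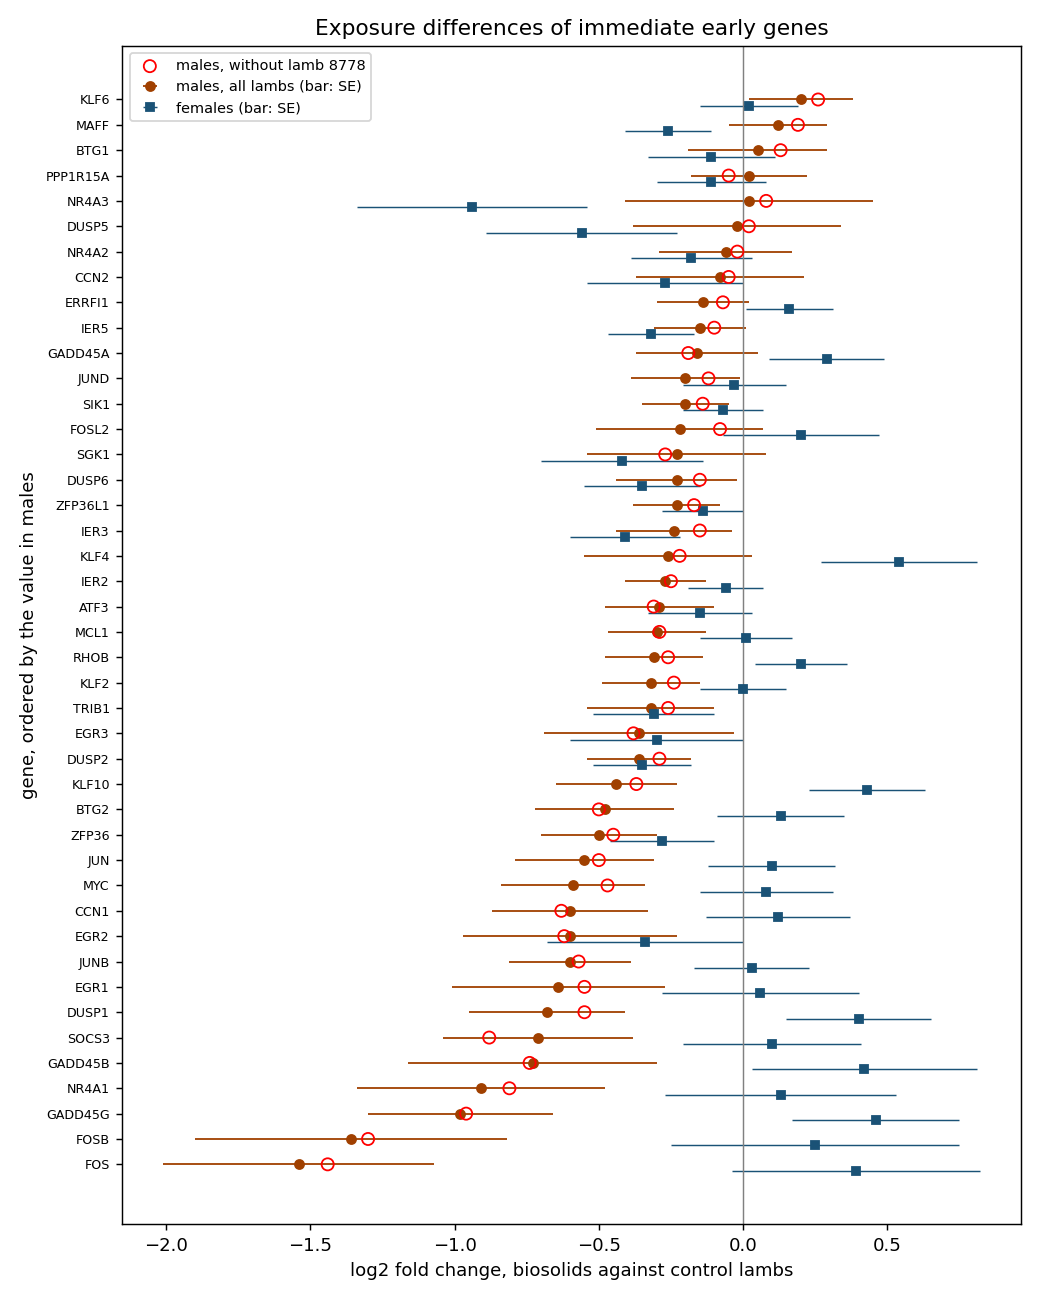
Log2 fold change, biosolids against control lambs, of 43 members, ordered by the value in males. Brown points are males with SE bars, red circles males without lamb 8778, and blue squares females with SE bars. In males 38 members lie left of 0 and in females 21 do.

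Markers of liver cell types were read in the same contrast. In males 11 of 11 hepatocyte markers lay below 0 with a median of -0.23, and none had a p under 0.05. Of 9 Kupffer cell and macrophage markers 6 lay below 0, of 8 T and NK cell markers 7, of 9 endothelial markers 6, of 10 stellate cell and fibroblast markers 4, and of 6 B and plasma cell markers 2. Of 7 cholangiocyte markers 6 lay above 0, with a median of 0.31, among them CFTR at 0.49 ± 0.23, while SPP1 was at -2.46 ± 0.98. The summed hepatocyte markers ran from 98000 to 131000 CPM in control males and from 72000 to 122000 CPM in biosolids males, and the summed stellate markers from 405 to 651 CPM and from 230 to 615 CPM. Their part in the values above was not tested.

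In female lambs the members were split. Of 43, 21 lay below 0 and 22 above, with a median of 0.00, beside 54.1% of all tested genes below 0 and a median of -0.015. None passed an adjusted p of 0.05, where 0.0% of all genes did, and DESeq2 and limma voom called none. At an unadjusted p under 0.05, 4 members were lower, beside 2.15% of all genes, and 1 was higher, beside 1.5%. Of 10 stellate cell and fibroblast markers 9 lay above 0 in females, with a median of 0.30, among them FBLN1 (1.40 ± 0.40) and COL1A2 (0.72 ± 0.31). Of 7 cholangiocyte markers 5 lay above 0, CLDN7 at 1.98 ± 0.64 and EPCAM at 1.48 ± 0.57, while SPP1 was at -1.53 ± 0.85. Hepatocyte markers were split, 6 of 11 above 0 with a median of 0.01. The part of these markers in the members' values was not tested.

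NR4A3 was the member with the smallest p in females, and it rested on lamb 8263. It ran from 0.613 to 5.05 CPM in control females, with 8263 on top and the next at 1.67 CPM, and from 0.364 to 1.57 CPM in biosolids females. The log2 fold change was -0.94 ± 0.40 (unadjusted p = 0.0255, adjusted p = 1, edgeR quasi-likelihood), and -0.34 without 8263. IER3, a survival gene, was at -0.41 ± 0.19, IER5 at -0.32 ± 0.15, the nuclear phosphatase DUSP2 at -0.35 ± 0.17 and KLF10 at 0.43 ± 0.20. KLF10 moved to 0.25 without biosolids female 8731. FOS was at 0.39 ± 0.43 in females, at -0.01 without biosolids female 8733 and at -0.02 by limma voom. GADD45G was at 0.46 ± 0.29, and at 0.88 without 8263. Without 8263, 16 members lay below 0 and 27 above, with a median of 0.04, and 3 were lower and 5 higher at p under 0.05. Without 8647, 8649 or 8731, 1 member was lower at that level.

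Averaged over both sexes, 39 of 43 members lay below 0, beside 51.1% of all tested genes, with a median of -0.22 beside -0.004, and none passed an adjusted p of 0.05 by edgeR, DESeq2 or limma voom, where 0.0% of all genes did by edgeR. At p under 0.05, 5 members were lower, beside 2.2% of all genes, and 0 higher, beside 2.11%. They were ZFP36 (-0.39 ± 0.13), DUSP2 (-0.36 ± 0.13), IER3 (-0.33 ± 0.14), IER5 (-0.23 ± 0.11) and the pseudokinase TRIB1 (-0.32 ± 0.15). These members had values of the same sign in females and males. Without 8778, 36 members lay below 0 with a median of -0.19, and 3 were lower at p under 0.05. Without 8263 the median was -0.10, and without 8695 the number at p under 0.05 was 10.

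The interaction, which is the exposure difference in males minus that in females, tested whether the sexes differed. None of 43 members passed an adjusted p of 0.05, where 0.0% of all tested genes did, and DESeq2 and limma voom called no member. A value below 0 was found for 31 members, beside 46.6% of all genes, and the median was -0.26, beside 0.031. At p under 0.05, 7 members were below 0, beside 1.41% of all genes, and 0 above, beside 2.23%. The smallest p were those of GADD45G (-1.44 ± 0.43, adjusted p = 0.951, edgeR quasi-likelihood), FOS (-1.93 ± 0.64), KLF10 (-0.87 ± 0.29), DUSP1 (-1.08 ± 0.37) and FOSB (-1.60 ± 0.73), followed by RHOB and JUNB. limma voom with sample weights gave -1.14 (unadjusted p = 0.139) for FOS and -0.69 (unadjusted p = 0.402) for FOSB. Over all 43 members the same fit put 34 below 0, with a median of -0.38, beside 0.003 over all genes. By edgeR without 8778 the median was -0.23, with 6 members below 0 and 1 above at p under 0.05. Without 8263 the number at p under 0.05 was 12, the median -0.35 and the smallest adjusted p 0.121, that of GADD45G. A difference between the sexes in the response of these genes was therefore not shown at the threshold. In the same contrast 7 of 10 stellate cell and fibroblast markers lay below 0, with a median of -0.48, and COL1A1 (-1.28 ± 0.51), COL1A2 (-1.14 ± 0.46) and FBLN1 (-1.37 ± 0.58) had p under 0.05. Of 11 hepatocyte markers 10 lay below 0, with a median of -0.23. The part of these markers in the members' values was not tested.

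Males and females were then compared within each exposure group. This comparison shares the 7 control males with the exposure contrast in males and with the interaction, so the 3 are not independent of each other. Among control lambs, 30 of 43 members were above 0 (male minus female), beside 45.4% of all tested genes, with a median of 0.21 beside -0.043. No member passed an adjusted p of 0.05 by edgeR or DESeq2, where 0.0841% of all genes did by edgeR. At p under 0.05, 8 members were higher in males, beside 7.74% of all genes, and 1 lower, beside 11.1%. The share of 8 in 43 has to be read against a comparison in which many genes differed at that level.

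GADD45G was the member closest to a call. Control females lay between 1.93 and 13.5 CPM with a median of 3.61, and without 8263 none exceeded 6.04 CPM, while the control males ran from 4.71 to 17.3 CPM. The log2 fold change was 0.97 ± 0.30 (adjusted p = 0.198, edgeR quasi-likelihood). Without control female 8263 it was 1.37 with an adjusted p of 0.0117 by the same edgeR test, and limma voom with sample weights gave 1.25 and an adjusted p of 0.0499. In the other fits the edgeR adjusted p stayed above 0.05.

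Also higher in control males at p under 0.05 were CCN1 (0.75 ± 0.26), FOS (1.29 ± 0.45), SOCS3 (0.91 ± 0.32), FOSB (1.35 ± 0.51), JUNB (0.53 ± 0.20) and JUN (0.54 ± 0.23). So was 1 of the 4 genes of mRNA decay and antiproliferative function. NR4A2 (-0.51 ± 0.22) was lower. SOCS3 ran from 25.2 to 73.7 CPM in control females and from 41.6 to 108 CPM in control males. FOSB moved to 0.84 without control male 8364 and to 0.68 by limma voom. Summed stellate cell and fibroblast markers did not overlap between the same groups, at 219 to 380 CPM in control females and 405 to 651 CPM in control males, and 9 of 11 hepatocyte markers were above 0 with a median of 0.38. Their part in these values was not tested.

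Among biosolids lambs the order was not the same. Of 43 members 27 lay below 0, beside 50.0% of all tested genes, with a median of -0.11 beside 0.00, and no member passed an adjusted p of 0.05, where 0.0953% of all genes did, nor did any by DESeq2 or limma voom. At p under 0.05, 2 were lower, KLF10 (-0.48 ± 0.21) and DUSP1 (-0.56 ± 0.26), beside 2.46% of all genes, and 0 higher, beside 2.39%. Without 8778, 8695 or 8731 none was at p under 0.05, and KLF10 moved to -0.30 without 8731. GADD45B (-0.76 ± 0.42) and NR4A2 (-0.39 ± 0.22) came next, with the stem cell and epithelial factor KLF4 at -0.53 ± 0.29, and at -0.27 without biosolids female 8649.

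The members were also compared with each other across lambs, after the mean of each group had been subtracted from log2 CPM, so that group differences could not produce a correlation. FOS was set against each of the other 42 members in 30 lambs. Its Spearman's rho was at least 0.5 with 5 members (11.9%), against 0.583% of all 17839 other tested genes, and the median rho was 0.23, beside 0.01 over all genes. All genes of a lamb share its library, depth and piece of tissue, and members are not independent of each other.

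The closest was FOSB, with r = 0.78 and rho = 0.69 (permutation p = 6e-05 and 0.0006, adjusted over the 42 relations p = 0.00126 and 0.0126), which was the second highest rho with FOS of any tested gene. NR4A1 followed with r = 0.79 and rho = 0.66 (permutation p = 4e-05 and 0.00037, adjusted p = 0.00126 and 0.0126) and ranked 6 among all genes. NR4A3 had r = 0.56 and rho = 0.58 (permutation p = 0.00075 and 0.00136, adjusted p = 0.0105 and 0.019). JUNB had r = 0.44 and rho = 0.52, with a permutation adjusted p of 0.0811 and 0.0391, and JUN had r = 0.53 and rho = 0.52, with 0.0811 and 0.0809. Without control males 8425 and 8351, the 2 lambs farthest from the median of FOS, r was 0.72 for FOSB, 0.69 for NR4A1, 0.46 for NR4A3, 0.46 for JUNB and 0.41 for JUN. Without biosolids female 8733 no member passed an adjusted permutation p of 0.05 by rho, where 4 did in all lambs.

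At the other end, FOS had a rho of -0.24 with CCN2, a matricellular target of YAP and TGF-beta, -0.09 with the kinase SGK1, -0.08 with PPP1R15A, which restores translation after stress, -0.06 with IER5 and 0.03 with IER3. None had a permutation p under 0.05. The NR4A receptors were divided again, with NR4A1 and NR4A3 close to FOS and NR4A2 at a rho of 0.15.

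Over all 903 pairs of members the median rho was 0.14, beside 0.00 over all pairs of tested genes, 9.41% of pairs reached 0.5, against 5.54%, and 28.5% were negative, against 50.0%. By rho, 58 positive and 7 negative pairs passed an adjusted permutation p of 0.05. The highest were IER2 with ZFP36L1 (r = 0.74, rho = 0.77, and permutation p = 1e-05 for both, the smallest these permutations can give) and FOSB with NR4A1 (r = 0.73, rho = 0.75, permutation p = 4e-05 and 2e-05). FOSL2 with ERRFI1 had a rho of 0.72, KLF2 with IER5 0.71 and JUN with DUSP1 0.70. The pair of FOSB and NR4A1 kept r = 0.82 without the 2 lambs farthest from the median of FOSB.

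SGK1, a kinase induced by glucocorticoids and osmotic stress, ran against many of the others. Its rho was -0.70 with IER2, -0.70 with ZFP36L1, -0.69 with DUSP6, -0.65 with ERRFI1 and -0.59 with CCN1, and 5 of the 7 negative pairs that passed involved it. Its median rho with the other members was -0.13, the lowest of 43, and its closest partner was NR4A2 (rho = 0.61). The remaining negative pairs were DUSP6 with GADD45B (rho = -0.60) and NR4A2 with CCN1 (rho = -0.56). In lamb 8263 SGK1 was at 163 CPM, where the highest other control female had 49.2 CPM, while DUSP6 was at 84.3 CPM, below every other control female. Without 8263 and biosolids female 8649, the 2 lambs farthest from the median of DUSP6, r between SGK1 and DUSP6 was -0.63, against -0.71 in all lambs.

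**Figure D5:**
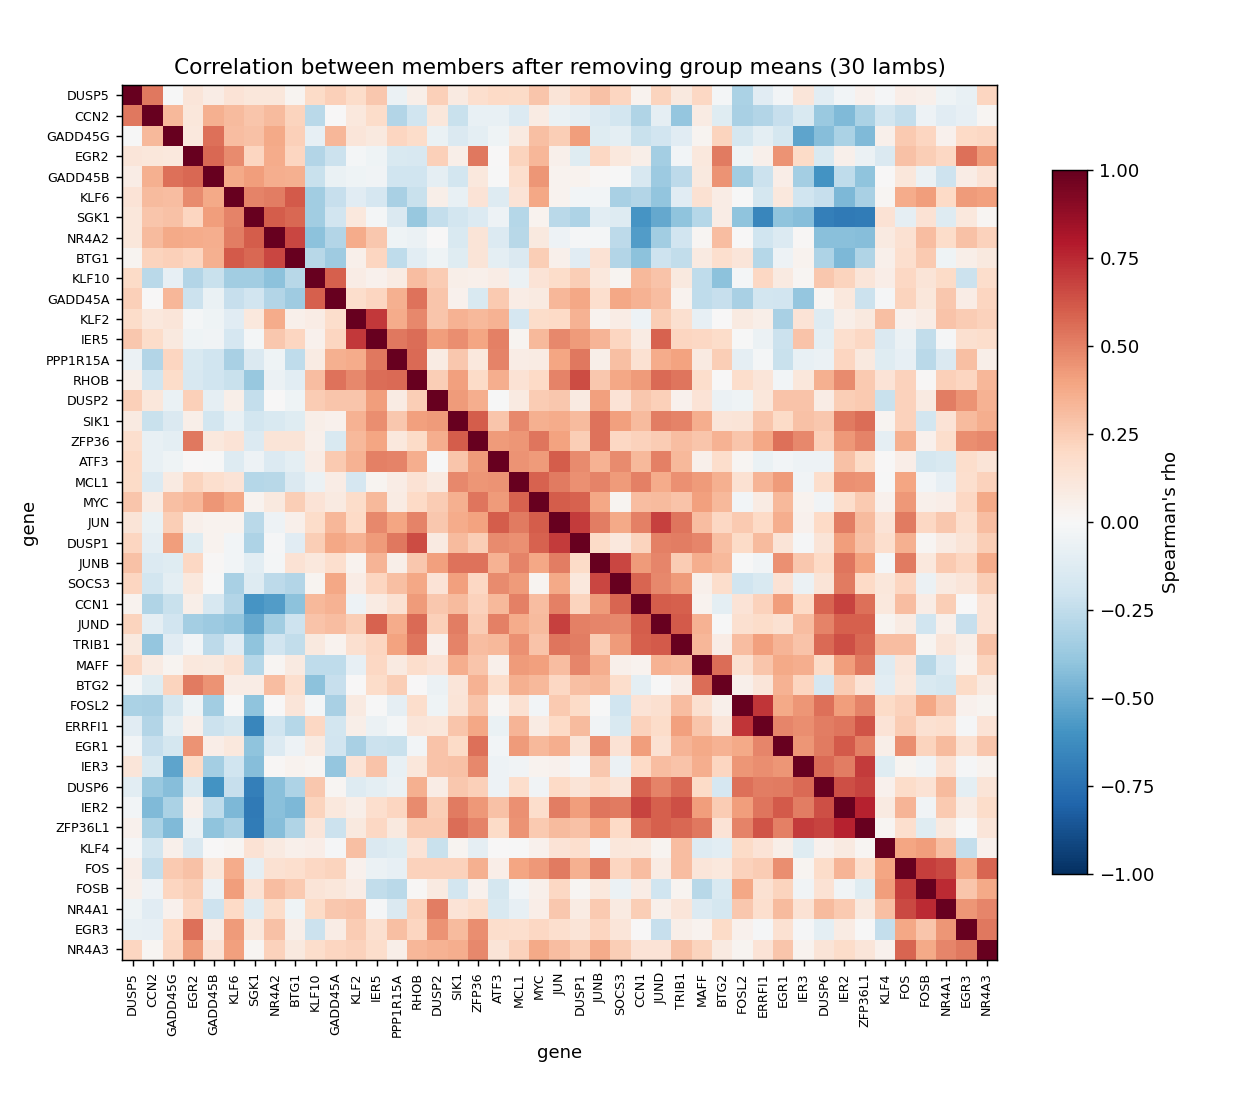
Spearman's rho between 43 members over 30 lambs after group means were removed, with genes ordered by similarity. FOS, FOSB, NR4A1, EGR3 and NR4A3 form the corner at the lower right, IER2, ZFP36L1 and DUSP6 lie beside it, and SGK1 and NR4A2 are blue against them.

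Lamb 8263 was not high in every member. Against the median of the other 7 control females, NR4A3 was 5.60-fold, SGK1 4.88-fold, DUSP5 4.29-fold, GADD45B 4.27-fold and GADD45G 3.84-fold higher, whereas FOS was at 1.10-fold, EGR1 at 0.870-fold, FOSB at 0.606-fold and NR4A1 at 0.410-fold. It was the highest control female for 19 members and the lowest for 5. The lambs with high FOS were different ones. Control male 8425 was the highest of its group for 12 members, FOS, EGR2, EGR3 and the 3 NR4A receptors among them, and biosolids female 8733 for 10, among them FOS, FOSB, NR4A1 and NR4A3.

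Genes upstream of the members, other early genes, feedback genes and targets of known stimuli were read from 7 further lists. With the members among them left out, the tested genes on these lists numbered 119. None of the 119 passed an adjusted p of 0.05 in any of the 6 contrasts by edgeR, DESeq2 or limma voom. At an unadjusted p under 0.05 by edgeR, 9 were lower in males, beside 2.15% of all tested genes, and 2 higher, beside 3.29%. In females 2 were lower, beside 2.15%, and 2 higher, beside 1.5%. Of 35 tested immediate early genes outside the list of 44, 31 lay below 0 in males with a median of -0.17, and 21 in females with a median of -0.06. In males 5 of them were lower at p under 0.05, led by the survival kinase PIM3 (-0.45 ± 0.20), PHLDA1 (-0.70 ± 0.32) and PIM1 (-0.50 ± 0.23). Of 28 genes from growth factor receptors to MAP kinases, 18 lay below 0 in males with a median of -0.07, and -0.02 without 8778. Of 16 transcription factors and coactivators that act on early gene promoters, 10 lay below 0 in males. Their median was -0.04, and 0.04 without 8778. SRF (-0.26 ± 0.11) and RELA (-0.25 ± 0.12) had p under 0.05 in all lambs.

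Stimuli known to induce members were read in the same way. Of 14 glucocorticoid targets, a list that holds the members DUSP1, SGK1 and ERRFI1, 12 lay below 0 in males (median -0.24) and 11 above 0 in females (median 0.15). TSC22D3, which encodes the glucocorticoid-induced leucine zipper protein, was at -0.24 ± 0.11 in males and 0.25 ± 0.10 in females, and its interaction of -0.49 ± 0.15 had an unadjusted p of 0.0021 and an adjusted p of 0.951 (edgeR, quasi-likelihood). Of 10 heat shock genes 5 lay below 0 in males and 1 in females. The heat shock median in males was 0.04, and -0.08 without 8778. Of 12 hypoxia targets 8 lay below 0 in males (median -0.15) and 9 in females (median -0.04), with ADM, a vasodilator peptide gene, at -1.05 ± 0.33 in females.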

How the data were processed

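Per the labels' protocols, RNA of frozen liver was isolated with a column kit, and TruSeq RNA libraries were sequenced on a NovaSeq flow cell. The submitters' processing notes name STAR, featureCounts 1.5.0-p3, Trimmomatic, MultiQC and FastQC. The authors deposited whole-number gene counts, not normalized, and 0 columns were left without a lamb. Lines broken within 7 genes were joined. Symbols, starts and ends matched RefSeq ARS-UI_Ramb_v3.0.

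Counts were fitted with edgeR 4.0.16 in R 4.3.3 (filterByExpr, TMM, robust quasi-likelihood, 1 mean per group, 26 residual degrees of freedom) and adjusted over 17840 genes. Alternatives were DESeq2 1.42.0, limma 3.58.1 voom with sample weights, RLE scaling, other filters, no ribosomal RNA rows, only the groups compared, and each lamb left out. CPM used TMM-scaled library sizes, and log2 CPM a prior count of 2. Correlations used 100000 permutations within groups. The fits and permutations were tested on simulated data. Litter is not labelled, so p-values treat lambs as independent.

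The members, lists and tests were chosen with earlier results of these data known. Named were FOS, JUN, JUNB, EGR1, ATF3, MYC, DUSP1 and SOCS3, the 5 smallest p per contrast, the 5 highest and lowest in level, spread and correlation with FOS, and up to 3 of the smallest p of other lists, of which 1 gene is not reported here. Other members were named after their values were seen. Promoter motifs were not analysed here.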

Additional observations from a re-analysis of the deposited data

Results flagged for a closer look

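Within each group, the highest and lowest lamb of each tested member was checked by Dixon's gap test at its 95% critical value. Of 172 gene and group combinations 22 (12.8%) had a lamb beyond it, and 10.6% of such combinations over all tested genes did. Normally distributed values would give about 1 in 20 groups (5%). The test was run on CPM without logs, so that rate need not hold here. The share among the members is near that of all genes. Of the 22 cases 10 were in lambs 8263 and 8778, with 9 in 8263 and 1 in 8778. Over all tested genes, 2086 of 7572 cases were in these lambs. No sex difference in the exposure values passed its test, so none is listed.

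Control female 8263 was far above the other control females for 9 members: ATF3 (14.2 CPM), MYC (42.8 CPM), NR4A3 (5.05 CPM), DUSP5 (5.64 CPM), SGK1 (163 CPM), BTG2 (167 CPM), GADD45B (21.4 CPM), GADD45G (13.5 CPM) and MCL1 (275 CPM). The nearest other control female had 6.82 CPM for ATF3, 17.2 CPM for MYC and 163 CPM for MCL1. Biosolids female 8733 stood above its group for FOS (23.9 CPM, next 10.1 CPM), NR4A1 (18.8 CPM, next 5.55 CPM) and NR4A3 (1.57 CPM, next 0.890 CPM).

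Control male 8425 stood above its group for EGR2 (3.10 CPM) and EGR3 (2.66 CPM), and biosolids male 8762 for IER5 (26.3 CPM) and RHOB (124 CPM). Single members were high in control female 8360 (FOSB, 2.20 CPM), biosolids female 8775 (MAFF, 6.12 CPM), biosolids female 8649 (KLF4, 5.03 CPM), biosolids female 8731 (SOCS3, 78.5 CPM) and biosolids male 8695 (TRIB1, 107 CPM). MYC in biosolids male 8778, the library rich in ribosomal RNA, was low at 5.32 CPM (15 counts), where the next lowest biosolids male had 13.8 CPM. FOS in control males was not among these cases, since 3 of the 7 lambs were high.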

How the results depend on the processing

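No paired analysis was possible because the labels give a tag for each lamb and not its litter. The members with the smallest p in each contrast gave 30 values, for which 1097 alternative fits were run. Of these fits, 1095 kept the direction and the side of the threshold and 0 reversed. The other 2 passed it, both GADD45G by sex in controls (limma voom, and without control female 8263). Outside sex in controls, the smallest adjusted p of a member was 0.816 in the main fit, so keeping the side says little. Values of other members were not in this count, and that of FOS in females changed sign without 8733 and by limma voom. Over all genes, DESeq2 called 4 genes for exposure in males, 4 over both sexes, 1 for the interaction and 54 for sex in controls, where edgeR called 0, 0, 0 and 15. limma voom called 64 for sex in controls. Requiring 1 CPM in 15 libraries gave 3 for sex in controls and 7 for sex in biosolids lambs, against 17, and a fit of only the 2 groups gave 10 for the latter. With each lamb left out, the counts for sex in controls ran from 10 to 23 and for sex in biosolids lambs from 12 to 21. The number of members correlated with FOS ran from 0 (without 8733) to 8 (without 8364), with 2 without 8778 and 2 without 8378, and the median rho over pairs from 0.12 to 0.16. Near 0, rho with FOS changed sign: SGK1 from -0.20 to 0.03, IER5 from -0.17 to 0.06 and IER3 from -0.10 to 0.12. The cause was not tested. FOSB, EGR3 and NR4A3 had about 1 CPM, where counting error is largest, most of all in 8778. In that library FOS rested on 5 counts and MYC on 15.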
